A study of Homo sapiens with 6 samples.

Results

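The genes described here are 10 markers of endoderm and of liver-type cells: AFP, APOA1, APOA2, APOB, TTR, SERPINA1, FGA, FGB, TF and FOXA2. They were chosen by symbol, as a sign of cells other than cardiomyocytes in the cultures, and all 10 were found among the 21134 genes of the series. The rule itself uses no expression value, but the genes were proposed with earlier results of these data known. The libraries came from hiPSC-CMs, cardiomyocytes differentiated from pluripotent stem cells of the line H9, which the study calls hiPSC although H9 was derived from a human embryo. The control group (2 libraries) received no treatment, the alcohol group (2 libraries) 100 mM alcohol for 24 h, and the co-treated group (2 libraries) 100 mM alcohol and 1 μM losartan for 24 h. Losartan blocks the type 1 receptor of angiotensin II, and the co-treated group answers what it adds to alcohol. There was no group with losartan alone, and all cells came from 1 line.

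Definitive endoderm is the germ layer from which liver, gut and lung arise, and FOXA2 is one of the transcription factors that mark it. Fetal and adult hepatocytes secrete most plasma proteins, among them albumin and its fetal relative AFP, the apolipoproteins of lipid particles, the fibrinogen chains and the transport proteins for iron and thyroid hormone. Heart and endoderm form side by side from neighbouring progenitors, and the cardiac protocol of the study opened with Activin A and the WNT activator CHIR99021, agents that are also used to direct stem cells to endoderm. The study's methods, as read here, name no step that selects cardiomyocytes.

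The expected counts (the authors' estimates of the reads of a gene) summed to between 4898287 and 5051448 per library. A count of 3 then corresponds to 0.594 to 0.612 CPM, the count relative to all counts of its library, and 3 counts are also what a count of 0 allows, by counting error only. FPKM corrects in addition for transcript length and is used for levels. Each group holds 2 libraries that the labels call repeats, and nothing says that they came from separate differentiations, so p-values measure only the spread between these libraries, which may be technical. An exact two-sided permutation test of 2 against 2 libraries cannot go below 0.333, so single sums and levels were compared by their ranges.

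AFP lies on chr4:73436221-73456174, FGB on chr4:154562980-154572807 and FGA on chr4:154583126-154590742 (GRCh38.p14, RefSeq). APOA1 lies on chr11:116835751-116837622, SERPINA1 on chr14:94376747-94390635 and TF on chr3:133661998-133796641. APOB spans chr2:21001429-21044073, APOA2 chr1:161222292-161223628, TTR chr18:31591877-31598821 and FOXA2 chr20:22580998-22585490. The APOA1 gene overlaps the antisense gene APOA1-AS, which held 8 to 14 counts per library, and the annotated span of TF overlaps SRPRB, which held 159 to 189. Whether the libraries keep strand is not given in the sources used here, so reads of such pairs may not be fully told apart. FGB was the only one of the 10 with counts that were not whole.

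Liver promoters are known for sites of FOXA factors, which bind forkhead motifs, and of HNF4 close to the start of transcription. RefSeq windows from 250 bases before to 50 bases after the start were at hand for 6 of the 10 genes (9 windows). Of the motifs searched on both strands, the forkhead motifs TGTTTAC and TGTTTGC were present in windows of 1 gene (APOA2) and 2 genes (FGA and SERPINA1), against 3.42% and 3.89% of 35116 windows of all genes. CAAAGT, the core of an HNF4 site, was in none of the 6 (11.9% of all windows), and TATAAA was in that of AFP alone (11.5%). The AFP window had 33.0% G and C and the FGB windows 32.7% and 33.0%, below the median of 58.7% over all windows. APOA2 (53.0%), FGA (47.0%) and 1 SERPINA1 window (57.3%) were also below it. The other SERPINA1 window (61.7%) and those of TF (69.3% and 61.3%) were above. A match is a run of letters, not a measured site. Because FOXA2 is one of the 10 genes, the 180 bases before the start are shown for the 3 genes with a forkhead motif, which is in capitals in either orientation. They were read 5′ to 3′ along the gene from chr1:161223629-161223808, chr4:154590743-154590922 and chr14:94388603-94388782, all on the minus strand of GRCh38.p14.
APOA2: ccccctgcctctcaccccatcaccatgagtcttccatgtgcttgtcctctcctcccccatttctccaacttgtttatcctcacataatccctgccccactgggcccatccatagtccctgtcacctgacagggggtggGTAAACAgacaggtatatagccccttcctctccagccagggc
FGA: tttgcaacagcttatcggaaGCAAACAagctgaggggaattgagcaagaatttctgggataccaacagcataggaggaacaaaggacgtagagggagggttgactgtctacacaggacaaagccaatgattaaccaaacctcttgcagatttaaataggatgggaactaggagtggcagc
SERPINA1: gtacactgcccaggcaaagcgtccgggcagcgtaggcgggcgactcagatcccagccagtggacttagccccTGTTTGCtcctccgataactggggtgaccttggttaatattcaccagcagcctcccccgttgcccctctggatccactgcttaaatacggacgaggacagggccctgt
The motif begins 42 bases before the start in APOA2, 160 in FGA and 108 in SERPINA1, in 1 of the 2 windows of the last gene. FOXA2 itself was at or close to 0 in all libraries.

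In the control libraries the 10 genes spanned from no read at all to a level above most genes listed. AFP, the fetal carrier protein of the blood, was the most abundant, with an FPKM of 20.6 ± 0.32 (SD, n = 2), at percentile 83.75 of all listed genes. APOA1, the main protein of high-density lipoprotein, followed with 14.2 ± 1.57 (percentile 76.85), and FGB, the beta chain of fibrinogen, with 4.54 ± 0.36 (percentile 52.96). The other 7 had control means below 2. AFP took 45.1% of the counts of all 10 genes over the 6 libraries, APOA1 17.5% and FGB 16.1%. Ordered by the mean of the 6 libraries, AFP stood at 22.9 ± 2.89 (SD, n = 6), APOA1 at 18.2 ± 3.87, FGB at 4.79 ± 1.06, APOA2 at 2.27 ± 1.50, TF at 2.08 ± 0.46, SERPINA1 at 2.04 ± 0.32, TTR at 1.57 ± 0.74, FGA at 0.70 ± 0.25, APOB at 0.39 ± 0.10 and FOXA2 at 0.06 ± 0.10. The only neighbours in this order whose ranges did not overlap were APOA1 and FGB. AFP was nonetheless above APOA1 within each of the 6 libraries, by 1.01 to 1.73 times.

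**Figure D1:**
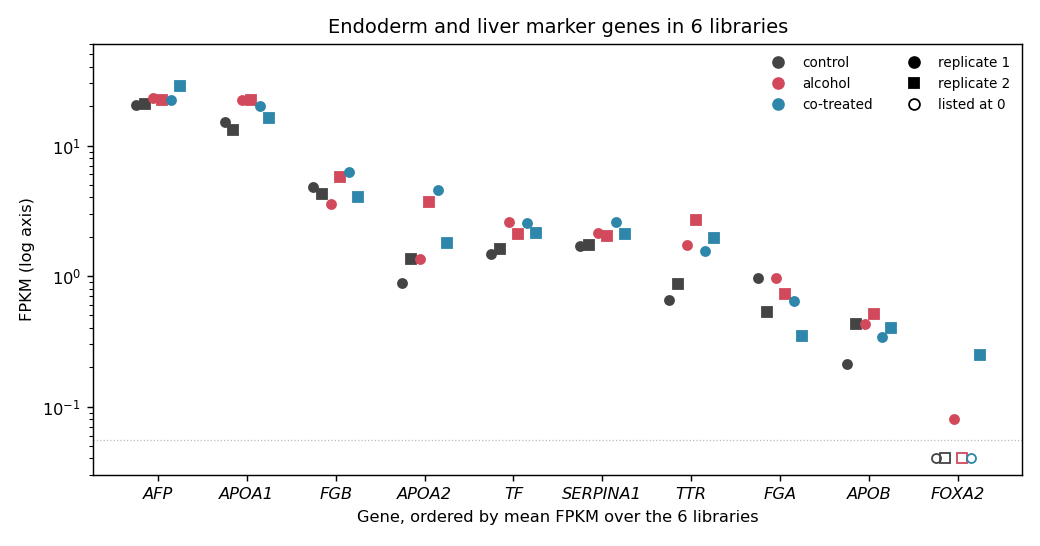
FPKM of the 10 genes in each of the 6 libraries, on a log axis, with 1 point per library coloured by group, circles for replicate 1, squares for replicate 2 and open symbols below the dotted line for 0. AFP and APOA1 lie between 13.05 and 28.39, FGB between 3.55 and 6.32, and the remaining genes at 4.60 or below.

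Beside the cardiac genes these transcripts were scarce. The summed FPKM of the 10 genes was 46.3 and 44.6 in the control, 58.3 and 62.2 in the alcohol and 60.8 and 57.8 in the co-treated libraries, which is 0.0101% to 0.0145% of all FPKM. The 14 cardiomyocyte markers, led in the control by the atrial light chain MYL7 (mean FPKM 15346), the hormone NPPA (4211) and the troponin TNNT2 (3672), took 5.46% to 7.51%. In the same library the cardiomyocyte sum was 376 to 740 times that of the 10 genes. In RNA from whole cultures, fewer cells of a type and less RNA per cell cannot be told apart, so these sums are not shares of cells.

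The label was checked against the regulators that define endoderm and liver, which had few or no counts. The genes chosen took only 0.0101% (control replicate 2) to 0.0145% (alcohol replicate 2) of all FPKM. Regulators of a small number of such cells could therefore go unseen at this depth. The check cannot decide whether such cells were present, and no conclusion is drawn from it. FOXA2, the pioneer factor of endoderm, had 0 counts in 4 of the 6 libraries, 1 in alcohol replicate 1 and 3 in co-treated replicate 2. None of 17 other endoderm and liver transcription factors passed the filter on low counts, and none exceeded 12 counts in any library. HNF4A, a master regulator of hepatocytes, had 2 counts in alcohol replicate 2 and 0 in the other 5 libraries. Among the highest of the 17 in the control were GSC (mean FPKM 0.25) and CEBPA (0.23). GATA4 and GATA6, which heart and endoderm share, were at 68.3 and 47.6. The genes are therefore called markers below by the rule that chose them, with AFP and APOA1 leading, and no cell type is named from them.

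Other liver genes were present at low levels. Of 26 further plasma proteins listed, 7 passed the filter, led in the control by the lipoprotein component APOC1 (mean FPKM 15.7), the lipocalin APOM (6.12) and coagulation factor F10 (3.42). Of 15 liver enzymes and transporters listed, 5 passed, led by CPS1 of the urea cycle (3.16), the lectin ASGR1 (2.70) and the glucose-6-phosphatase G6PC (2.31). A few epithelial genes were much higher, the keratins KRT8 and KRT18 at 586 and 347 and the claudin CLDN6 at 125, while the median of the 12 epithelial genes was 4.72. Among other cell types, the fibroblast markers were led by the collagens COL3A1, COL1A1 and COL1A2 (156, 127 and 93.0), the endothelial markers by KDR (3.85), TEK (1.59) and PECAM1 (0.59), the pluripotency markers by POU5F1 (4.96), ZFP42 (3.51) and NANOG (2.90), and the neural markers by NES (247), STMN2 (1.03) and PAX6 (0.42). The median control FPKM was 1.33 for the 10 markers, 0.21 for the other plasma proteins, 0.08 for the transcription factors, 26.1 for the fibroblast and 0.45 for the endothelial markers.

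**Figure D2:**
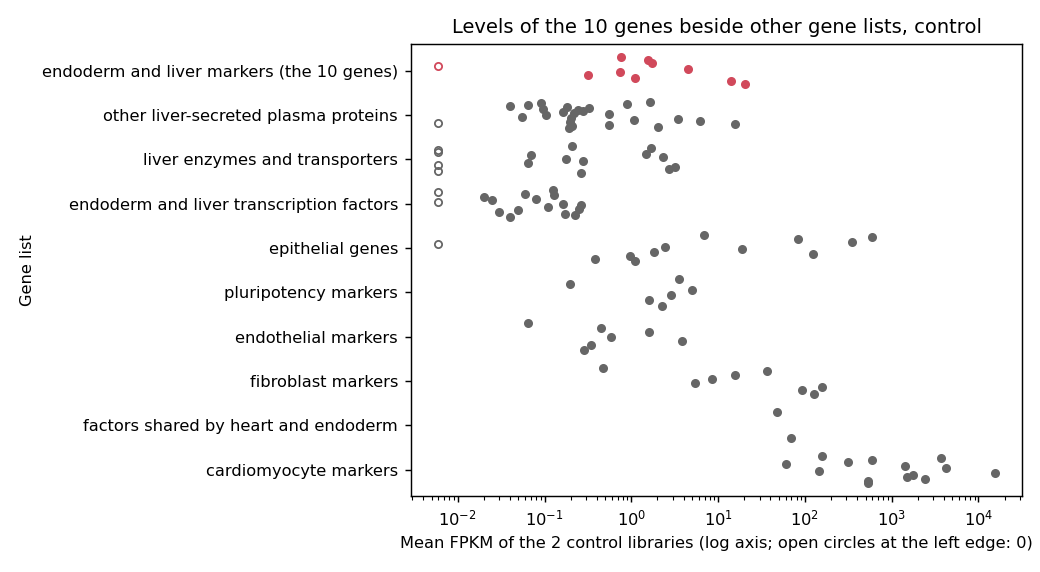
Mean FPKM over the 2 control libraries of each gene in 10 lists, on a log axis, with 1 point per gene (the 10 genes in red) and open circles at the left edge for genes at 0. The 10 genes have a median of 1.33, between the transcription factors at 0.08 and the cardiomyocyte markers at 1009.

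The chains and gene neighbours that hepatocytes make together were uneven. ALB, the adult albumin gene beside AFP on chromosome 4, had FPKM values of 2.01 and 2.02 in the control, 2.10 and 1.80 in the alcohol and 2.80 and 1.05 in the co-treated libraries, and AFP was 7.92 to 27.0 times higher in the same library. Fibrinogen is built from equal numbers of FGA, FGB and FGG chains, yet FGB was 3.66 to 11.6 times FGA, and FGG had 1, 0, 1, 5, 3 and 8 counts in the control, alcohol and co-treated libraries, in that order. APOA1 was 11.9 to 27.8 times APOA4, which lies in the same cluster on chromosome 11, and APOC3 of that cluster was at 0 in 2 libraries. The ratios were computed within a library, and ALB, FGG, APOA4 and APOC3 were named here after their values were seen.

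**Figure D3:**
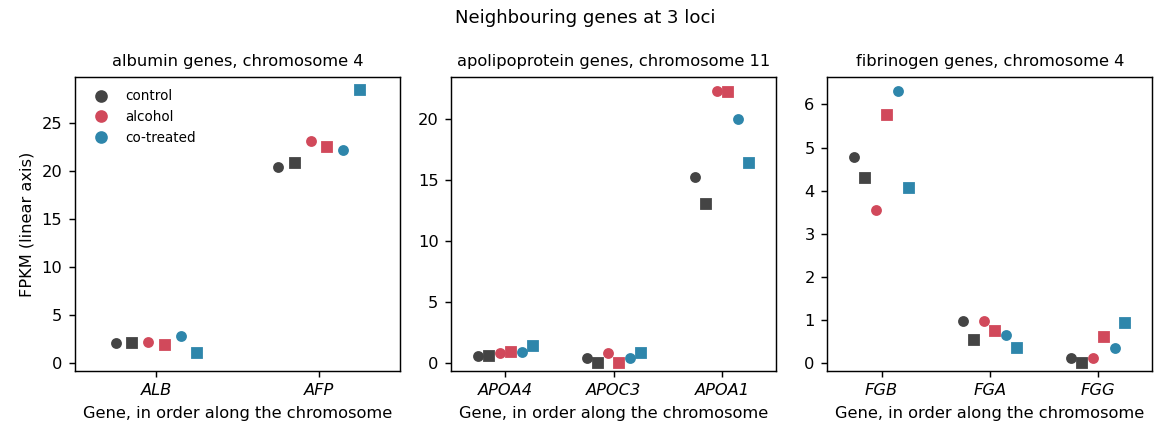
FPKM in each of the 6 libraries for AFP and ALB, for the 3 fibrinogen chains and for APOA1 and its cluster neighbours, on linear axes, with 1 point per library coloured by group, circles for replicate 1 and squares for replicate 2. AFP, FGB and APOA1 stood above the other genes of their loci in all 6 libraries.

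Alcohol was compared with the control to see whether these transcripts moved with the exposure. No marker passed edgeR's quasi-likelihood test at a Benjamini-Hochberg adjusted p under 0.05, where 0.067% of the 14926 genes tested were called. The filter on low counts left 7 of the 10 (AFP, APOA1, APOB, SERPINA1, FGA, FGB and TF). At an unadjusted p under 0.05 the count was 1 of the 7 by edgeR, by DESeq2 and by limma alike, against 11.0% of all genes by edgeR, and that gene was APOA1 in each. The median log2 fold change of the 7 was 0.24, and that of all genes tested -0.0033.

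Among the 7 genes tested, APOA1 had the largest log2 fold change with alcohol. APOA1 had FPKM values of 15.27 and 13.05 in the control, 22.32 and 22.23 in the alcohol and 20.02 and 16.39 in the co-treated libraries. The control libraries were the lowest, the alcohol libraries the highest and nearly equal, and no group overlapped another. Its log2 fold change with alcohol was 0.64 (SE 0.20, 95% interval 0.21 to 1.07), a ratio of 1.55, with an edgeR adjusted p of 0.247 (unadjusted 0.00685), and 2.75% of all genes had a smaller p. Over all alternatives the adjusted p lay between 0.181 and 0.766. APOB, the structural protein of low-density lipoprotein, had 0.21 and 0.43, 0.43 and 0.51, and 0.34 and 0.40 in the same order of groups. Control replicate 1 stood lowest, and the control and alcohol groups touched at 0.43. Its log2 fold change was 0.52 (SE 0.38, 95% interval -0.30 to 1.34, edgeR adjusted p = 0.675), and leaving out control replicate 1 gave 0.12, while leaving out the other control gave 1.13.

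AFP had FPKM values of 20.35 and 20.80 in the control, 23.14 and 22.45 in the alcohol and 22.18 and 28.39 in the co-treated libraries. The control was below every exposed library, and co-treated replicate 2 stood highest by itself. The log2 fold change with alcohol was 0.11 (SE 0.16, 95% interval -0.23 to 0.45, edgeR adjusted p = 0.857). SERPINA1, the inhibitor of neutrophil elastase, had 1.71 and 1.72, 2.14 and 2.02, and 2.59 and 2.09. Its control libraries were again the lowest, and its log2 fold change with alcohol was 0.24 (SE 0.31, 95% interval -0.44 to 0.91, edgeR adjusted p = 0.842). TF, transferrin, which carries iron, had 1.48 and 1.62, 2.60 and 2.10, and 2.54 and 2.12. The exposed groups overlapped each other and lay above the control, with a log2 fold change with alcohol of 0.56 (SE 0.34, 95% interval -0.16 to 1.29, edgeR adjusted p = 0.592).

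The fibrinogen chains did not share that order. FGB had 4.79 and 4.28 in the control, 3.55 and 5.76 in the alcohol and 6.32 and 4.06 in the co-treated libraries. Both exposed groups straddled the control, and the log2 fold change with alcohol was -0.0048 (SE 0.26, 95% interval -0.57 to 0.56, edgeR adjusted p = 0.996). FGA, the alpha chain, had 0.97 and 0.53, 0.97 and 0.73, and 0.64 and 0.35, from 5 to 13 counts per library. Its log2 fold change with alcohol was -0.02 (SE 0.60, 95% interval -1.33 to 1.29, edgeR adjusted p = 0.995). For FGA the interval covers a fall to 0.399 and a rise to 2.44 times the control, so a change of either kind was not detectable at this depth. The sign of both fibrinogen estimates turned under 5 of the alternatives each.

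The 3 genes below the filter were too low for the main test. TTR, the carrier of thyroid hormone and retinol-binding protein, had 3 and 4 counts in the control, 8 and 12 in the alcohol and 7 and 9 in the co-treated libraries, with FPKM values of 0.65 and 0.87, 1.73 and 2.67, and 1.56 and 1.95. The exposed libraries lay above the control, and without the expression filter edgeR gave a log2 fold change with alcohol of 1.47 (SE 0.68, 95% interval -0.01 to 2.95, adjusted p = 0.603) and with alcohol and losartan of 1.14 (SE 0.70, 95% interval -0.38 to 2.66, adjusted p = 0.694). APOA2, the second protein of high-density lipoprotein, had 2, 3, 3, 8, 10 and 4 counts in that order of libraries. Replicates of APOA2 differed by 2.6 times in the alcohol and 2.52 times in the co-treated group, and its log2 fold changes against the control were 1.09 (SE 0.93, adjusted p = 0.827) and 1.42 (SE 0.90, adjusted p = 0.716) by edgeR without the filter. FOXA2 was at 0 in both control libraries and at no more than 3 counts elsewhere, so no fold is given.

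Alcohol with losartan was compared with the control in the same fit. No marker passed edgeR's test, where 0.362% of all genes were called. At an unadjusted p under 0.05 the count was 0 by edgeR, 0 by DESeq2 and 1 (APOA1) by limma. By edgeR 12.6% of all genes had such a p. The log2 fold changes were 0.25 for AFP (SE 0.16, 95% interval -0.09 to 0.59, edgeR adjusted p = 0.549), 0.33 for APOA1 (SE 0.20, -0.11 to 0.76, 0.551), 0.54 for TF (SE 0.34, -0.19 to 1.27, 0.560) and 0.40 for SERPINA1 (SE 0.31, -0.27 to 1.06, 0.653). APOB was at 0.18 (SE 0.39), FGB at 0.12 (SE 0.26) and FGA at -0.68 (SE 0.65), with edgeR adjusted p of 0.895, 0.894 and 0.730. The estimate of FGA was -0.0098 without control replicate 1 and -1.13 without control replicate 2. Of the 7 estimates 6 were above 0, beside 7429 of all 14926 genes, with a median of 0.25 against -0.0017 for all genes. Among the 6, APOB turned to -0.24 without control replicate 1 and FGB to -0.21 without co-treated replicate 1. The alcohol and co-treated comparisons share both control libraries and are not independent of each other.

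The addition of losartan was read from the co-treated against the alcohol libraries. No marker passed edgeR's test, where 0.0134% of all genes were called, and 0 had an unadjusted p under 0.05 by edgeR, DESeq2 or limma, against 5.55% of all genes by edgeR. APOA1 had a log2 fold change of -0.31 (SE 0.19, 95% interval -0.73 to 0.11, edgeR adjusted p = 0.915), APOB of -0.34 (SE 0.37, 0.954) and FGA of -0.66 (SE 0.65, 0.952). AFP was at 0.14 (SE 0.16, edgeR adjusted p = 0.953), SERPINA1 at 0.16 (SE 0.30, 0.971), FGB at 0.13 (SE 0.26, 0.971) and TF at -0.03 (SE 0.32, 0.994). The intervals of APOA1 and AFP, the best measured, exclude a co-treated level below 0.604 and 0.875 times or above 1.08 and 1.39 times that with alcohol alone, in the order of the genes.

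**Figure D4:**
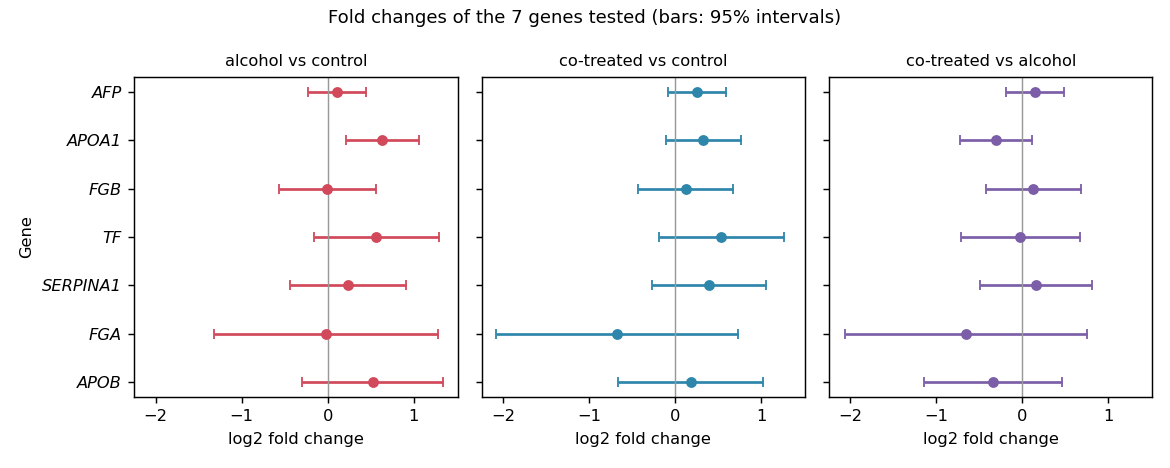
Log2 fold change of the 7 genes tested in each of the 3 comparisons, with 95% intervals from the edgeR fit. All intervals cross 0 except that of APOA1 for alcohol against control, which runs from 0.21 to 1.07.

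The order of the libraries was followed over all 10 genes. Between alcohol and control, 5 of the 10 had alcohol libraries that both lay above both control libraries in FPKM (AFP, APOA1, TTR, SERPINA1 and TF), and 0 had them below. Of the 7 tested genes 4 did so. In TMM-scaled CPM APOA2 and APOB did so in addition. Each had a count that tied between a control and an alcohol library, so only the scaling set the groups apart. The share over all genes was taken in FPKM only, so no count of genes is given in CPM. In FPKM, 24.7% of all genes tested lay above and 17.7% below. Between co-treated and control it was 6 of the 10 (APOA2 in addition), again 4 of the 7, with 0 below. Of all genes 27.1% lay above and 16.3% below. Between co-treated and alcohol 0 lay above and 3 below (APOA1, APOB and FGA), and of all genes 18.0% lay above and 14.3% below. Set against all 4 alcohol-exposed libraries, a comparison chosen after the values were seen, the control was lowest for AFP, APOA1, TTR, SERPINA1 and TF, 4 of them among the 7 tested, and for 14.8% of all genes. In TMM-scaled CPM APOA2 joined them, again with no share over all genes on that scale. In CPM without TMM scaling, control replicate 1 held the lowest value of AFP, APOA2, APOB, TTR, SERPINA1 and TF, and the highest of FGA. APOA1 was lowest in control replicate 2, FGB in alcohol replicate 1 and FGA in co-treated replicate 2. How often a library is lowest was not counted over all genes. With TMM scaling SERPINA1 was lowest in control replicate 2 (centred log2 CPM -0.21, against -0.19 in replicate 1).

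The sums of other lists moved beside those of the markers. Scaled by TMM, the 10 genes summed to 92.4 and 90.8 CPM in the control, 110 and 111 in the alcohol and 111 and 111 in the co-treated libraries, and without AFP to 49.4 and 47.7, 61.0 and 66.2, and 66.0 and 52.9. The other plasma proteins summed to an FPKM of 34.0 and 35.2, 37.1 and 48.5, and 42.2 and 41.4, and the liver enzymes to 10.7 and 14.1, 14.4 and 15.2, and 16.8 and 16.6. The cardiomyocyte markers summed to an FPKM of 32370 and 33055, 30787 and 23381, and 26247 and 29041, highest in the control, but in CPM the groups overlapped (59654 and 56118, 61405 and 51582, 56360 and 56858), and 7 of the 14 estimates with alcohol were above 0. The summed FPKM of the 12 epithelial genes was highest in the control (1254 and 1092, 1053 and 698, 862 and 780), although 3 of the 9 tested had estimates above 0 with alcohol and 6 with alcohol and losartan. That of the 7 endothelial markers was lowest there (7.71 and 6.62, 8.47 and 9.19, 9.62 and 11.4), with 2 and 3 of the 5 tested above 0. Of all 14926 genes tested, 7376 had estimates above 0 with alcohol and 7429 with alcohol and losartan. The sums follow the few most abundant genes of each list. The fibroblast sum was 465 and 421, 516 and 482, and 518 and 467, and that of the transcription factors 1.39 and 2.09, 2.55 and 1.16, and 2.37 and 2.26. The alcohol libraries lay above the control for the fibroblast sum and overlapped the control for the transcription factors. In both lists they overlapped the co-treated libraries, and the co-treated libraries lay above the control. The part of these shifts in the values of the 10 genes was not tested.

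No gene of the other plasma proteins or liver enzymes passed edgeR's test in any of the 3 comparisons. Of the 7 plasma proteins tested, 1 had an unadjusted p under 0.05 by edgeR with alcohol and 1 with alcohol and losartan, both above the control. Of the 5 enzymes it was likewise 1 and 1. Over all genes tested, 11.0% and 12.6% had such a p, in either direction. F10 had 29 and 24 counts in the control, 45 and 57 in the alcohol and 52 and 36 in the co-treated libraries. Its control libraries were the lowest, with log2 fold changes of 0.92 with alcohol and 0.71 with alcohol and losartan (edgeR adjusted p = 0.286 and 0.380).

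The only call in any of the lists was among the receptors and partners of the secreted proteins. ABCA1, the pump that loads APOA1 with cholesterol, had 209 and 176 counts in the control, 322 and 482 in the alcohol and 573 and 508 in the co-treated libraries. The 3 groups did not overlap, with the control lowest and the co-treated libraries highest. ABCA1 rose with alcohol and losartan (log2 fold change 1.47, SE 0.18, edgeR adjusted p = 0.0052). That call was lost with limma (adjusted p = 0.117 and 0.126 at pseudocounts of 1 and 0.1) and without co-treated replicate 1 (0.107) or replicate 2 (0.140). With alcohol alone the log2 fold change was 1.04 (SE 0.18, edgeR adjusted p = 0.0547), and the adjusted p ranged from 0.00123 with DESeq2 to 0.351 without alcohol replicate 2. Co-treated against alcohol gave 0.43 (edgeR adjusted p = 0.857).

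Of the 10 partners tested, 3 higher and 2 lower genes had an unadjusted p under 0.05 by edgeR with alcohol, and 4 and 2 with alcohol and losartan. Of all 14926 genes tested, 786 higher and 863 lower had such a p with alcohol, and 934 and 951 with alcohol and losartan. TFRC, the receptor that takes up transferrin, had 448 and 429 counts in the control, 320 and 242 in the alcohol and 300 and 327 in the co-treated libraries. The control libraries were the highest. The log2 fold change with alcohol was -0.66 (SE 0.15, edgeR adjusted p = 0.121), and it was called only without alcohol replicate 1 (0.0206). STRA6, the receptor of retinol-binding protein, had an FPKM of 21.9 and 21.7, 22.8 and 29.5, and 23.2 and 20.8, and its co-treated libraries straddled the control.

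The 7 tested genes did not share 1 pattern closely. Their mean profile of centred log2 CPM was -0.14 and -0.18 in the control, 0.16 and 0.11 in the alcohol and 0.10 and -0.05 in the co-treated libraries. The root mean square difference from it over the 6 libraries was 0.12 for SERPINA1, 0.14 for APOA1, 0.17 for TF, 0.19 for AFP, 0.26 for FGB, 0.33 for APOB and 0.39 for FGA, while the median of the 14919 other genes was 0.23. The 5 genes nearest to the profile were TMEM63A (0.03), C16orf58 (0.03), AHSA2 (0.03), POR (0.04) and WIPI2 (0.04), which are on none of the lists. FGB, APOB and FGA were thus farther from the mean of their own set, which each helps to form, than a typical gene. FGA had 5 to 13 counts per library and APOB 15 to 36, so counting error enters their distances, by an amount that was not tested.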

How the data were processed

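RNA sequencing of 6 libraries was analysed. Per the submitters' processing notes HISAT2 2.0.4, Bowtie2 2.2.5, RSEM 1.2.12 and the build hg38 were used, with no role given. For each gene and library the authors deposited an expected count, of which 33.917% were not whole, an FPKM (the count scaled by transcript length and library size) and a length. Expected counts were rounded and tested with edgeR 4.0.16 (R 4.3.3): quasi-likelihood F test, two-sided, TMM normalization, filterByExpr, all 6 libraries in 1 fit, no covariates, Benjamini-Hochberg adjustment over 14926 genes, threshold 0.05. The step was tested on simulated data for alcohol against control. It recovered 74.71% of the changed genes at an absolute log2 fold change of 1 and 98.23% at 2, with 3 false calls. Smaller changes, such as the estimates of the markers tested, were not simulated. The changed genes were drawn only from those above a minimum mean count, which FGA, TTR, APOA2 and FOXA2 do not reach. Every simulated gene had the same spread between libraries beyond counting error, so the rates do not carry over to low or more variable genes. Intervals are 95% intervals of the fit and cover the spread between these libraries. Levels used the deposited FPKM, and profiles log2 CPM with a prior count of 2. The alternatives were DESeq2 1.42.0, limma 3.58.1 on log2(FPKM + 1) or log2(FPKM + 0.1), other size factors, other filters, a replicate block, fits of 2 groups and each library left out.

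The members and the gene lists were chosen with earlier results of these data known. Named were the 10 members, each list's called genes and its 3 highest by control FPKM (some items are not reported here), and the 5 genes nearest to the members' mean profile. HNF4A, ALB, FGG, APOA4, APOC3, APOA1-AS and SRPRB were named after their values were seen. Of the lists, 11 symbols were not listed and were not used here. Positions and promoter windows came from RefSeq, GRCh38.p14.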

Additional observations from a re-analysis of the deposited data

How the results depend on the processing

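No marker that was given an adjusted p was called in any comparison under any of the 14 alternatives. Among the 7 genes of the main test the lowest adjusted p, 0.181, was that of APOA1 for alcohol against control. DESeq2 gave none for APOB, SERPINA1, FGB and TF for alcohol against control. It gave none for FGA, TTR, APOA2 and FOXA2 in either comparison with the control, so no call was possible there. Where a filter removed TTR, APOA2 or FOXA2, no test was made. Of 289 estimates under alternatives 272 kept their direction. With all libraries, those that turned were FGA for alcohol against control, to 0.0086 with the replicate block, 0.0886 with limma on log2(FPKM + 1) and 0.20 on log2(FPKM + 0.1), and FGB there, to 0.0070 with no filter, 0.0020 with the block and 0.0044 with limma on log2(FPKM + 1). With 1 library left out, log2 fold changes ran for alcohol against control from -0.46 to 0.66 for FGA and from -0.33 to 0.27 for FGB, for co-treated against control from -0.24 to 0.78 for APOB and from -0.21 to 0.39 for FGB, and for co-treated against alcohol from -0.0645 to 0.32 for AFP, -0.20 to 0.45 for FGB, -0.21 to 0.17 for TF, -0.0519 to 0.38 for TFRC and -0.51 to 0.0283 for F10. A group left with 1 library is assumed to vary like the others. FGA could not be fitted with at least 10 counts in every library, and its low counts, like those of TTR, APOA2 and FOXA2, limit what can be seen.

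The count of all genes called depended on the setting, and the cause was not tested. For alcohol against control it was 10, and 74 with DESeq2, 2 with no filter, 26 with at least 10 counts, 3 with only the 2 groups, 0 and 2 with limma on log2(FPKM + 1) and log2(FPKM + 0.1), and 1 to 220 with a library left out. For co-treated against control it was 54, and 116, 15, 158 with DESeq2, no filter and only the 2 groups, 2 and 3 with limma, and 2 to 184 with a library left out. For co-treated against alcohol it was 2, and 5, 1, 0 and 4 with DESeq2, no filter, at least 10 counts and only the 2 groups, 1 with limma on log2(FPKM + 1), and 1 to 24 with a library left out.

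With the replicate number as a block the counts were 48, 136 and 5 in that order of comparisons. Over all genes tested, same-numbered libraries deviated together by correlations of 0.114, -0.016 and 0.041. That does not settle whether some genes share a replicate effect. MYH6 counts differed between replicates in the same direction in every group, those of MYL2 in the control and alcohol groups but not the co-treated. The labels name no shared day or batch, so the main fit used no block, and pairing was left undecided.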
